A study of Homo sapiens with 24 samples.

Results

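The response to a progestin was compared between a subline of the T47D human breast cancer line that carries progesterone receptor and a subline labelled as lacking it, with no interferon present. The libraries were the 12 of 24 in the series whose labels give water in place of interferon-alpha (IFN). They fell into 4 groups of 3 biological replicates: T47D-co given R5020, T47D-co given ethanol (EtOH), T47D-Y given R5020 and T47D-Y given EtOH. T47D-co is labelled PR-positive and T47D-Y PR null. All 12 cultures received water for 18 hours and then 10 nM R5020, a synthetic progestin, or its vehicle EtOH for 6 hours, in a medium with serum and insulin. Total RNA was sequenced to 15542651 to 33607504 estimated fragments per library. The quantity followed here is the line by R5020 interaction: the log2 effect of R5020 in T47D-co minus its log2 effect in T47D-Y. It is positive where R5020 raised a gene more, or lowered it less, in T47D-co.

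The progesterone receptor is a steroid receptor of the nuclear receptor family. On binding hormone it leaves its chaperones, binds DNA at short palindromic response elements shared with other steroid receptors, and recruits coactivators or corepressors. In luminal breast cells it is itself an oestrogen-induced gene, and progestins drive secretory differentiation genes, growth factor signals and an early passage through G1. R5020 can also bind the glucocorticoid receptor.

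Levels are in scaled fragments: the estimated fragments of a gene, brought to a common scale by 1 factor per library. Effects are limma estimates ± SE on the log2(scaled fragments + 1) scale, which understates the change of genes near 0. Calls rest on p-values adjusted by Benjamini-Hochberg over 20159 tested genes or merged entries, with a threshold of 0.05. Within the 4 groups, libraries correlated at 0.9847 to 0.9876 across genes, which are not independent replicates. In 4 libraries 1 merged mitochondrial locus was listed at 0: replicate 2 of T47D-co EtOH, replicates 1 and 2 of T47D-Y R5020, and replicate 1 of T47D-Y EtOH. The 7 luminal markers, all present, summed to 61760 to 64050 scaled fragments in T47D-co R5020, 90050 to 90600 in T47D-co EtOH, 91960 to 98120 in T47D-Y R5020 and 93550 to 95610 in T47D-Y EtOH. Of 18 markers of other cell types, 10 could be read, and they summed to 28960 to 29150, 35260 to 35640, 209.4 to 258 and 243.5 to 254 in the same 4 groups. Nearly all of the T47D-co sum was ALB, the serum albumin gene of liver, at 28650 in T47D-co R5020 and 34910 in T47D-co EtOH, against 5.54 in T47D-Y R5020 and 7.93 in T47D-Y EtOH. Its interaction was not called, and PTPRC, CD3E, LYZ, VWF and CDH5, which mark blood and vessel cells, lay between 0 and 10.6 scaled fragments in every library. The part of ALB-expressing cells in the results was not tested. In such bulk samples a change in the mix of cells and a change in RNA per cell cannot be told apart.

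Transcripts of PGR, the progesterone receptor gene, were far lower in T47D-Y, labelled PR null, but were present in every library. Receptor protein was not measured, and the lines differed in more than PGR. PGR stood at 13720, 13250 and 12780 scaled fragments in T47D-co R5020, 27960, 26310 and 25170 in T47D-co EtOH, 466.0, 446.0 and 483.0 in T47D-Y R5020, and 709.1, 649.6 and 719.1 in T47D-Y EtOH. All 4 groups were apart, and R5020 lowered PGR in both lines, by a log2 effect of -0.998 ± 0.0479 in T47D-co against -0.57 ± 0.05 in T47D-Y (interaction -0.42 ± 0.07, adjusted p = 1.04e-05). In EtOH libraries the mean of T47D-Y was 2.616% of that of T47D-co for PGR. For NR3C1, the glucocorticoid receptor gene, it was 2.034%. An effect of the line and an effect of either receptor's level therefore cannot be told apart in this design.

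R5020 acted on many genes in T47D-co and on few in T47D-Y. In T47D-co 11396 genes were called (56.5%), 5357 higher (26.6%) and 6039 lower (30.0%). In T47D-Y 44 were called (0.218%), 41 higher (0.203%) and 3 lower (0.0149%), and 846 reached an unadjusted p under 0.05. The interaction was called for 8988 genes (44.6%), of which 4351 were positive (21.6%) and 4637 negative (23.0%). With an interaction of at least 2-fold there were 1243 positive (6.17%) and 1409 negative (6.99%). Leaving out the 4 libraries that list the mitochondrial locus at 0 keeps replicate 3 alone in T47D-Y R5020. Calls lost in that fit therefore cannot be told apart from lost replication.

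Of the 8988 genes, 8799 were called for R5020 in T47D-co alone, 4251 with a positive interaction and 4548 with a negative one. A further 36 were called in both lines with the larger effect in T47D-co, 2 with the larger effect in T47D-Y, and 3 with opposite effects. The other 148 were called in neither line by itself. Calls in T47D-co with no called interaction numbered 2553, and 3 more genes, ALOX12B, GJA1 and AKAP12, named after their values were seen, were called in both lines without one. No gene met the rule for an equal effect, which asked for calls of 1 sign in both lines and an interaction whose 95% interval stayed within 1.5-fold. Only those 3 genes could meet it, and the interval of ALOX12B ran from -0.976 to 0.824. The lack of such a gene does not show that no effect was equal. A failed call in T47D-Y does not show that the gene did not respond there.

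**Figure D1:**
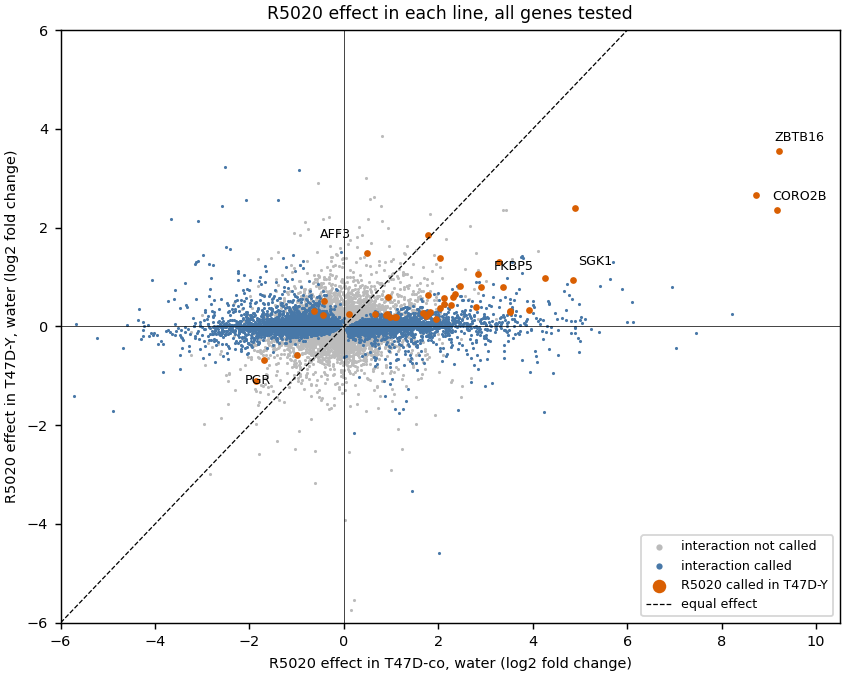
R5020 effect in T47D-co (x axis) against T47D-Y (y axis) for the tested genes, both as log2 fold changes in water libraries; colour gives the interaction call, orange the 44 genes called in T47D-Y, and the dashed line an equal effect. Most points lie along the horizontal axis, with ZBTB16 and CORO2B at the far right (3 genes lie outside the axes).

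The T47D-Y effect was small over the whole range of T47D-co effects. Among the 68 genes raised at least 16-fold in T47D-co, the median log2 effect was 4.75 in T47D-co against 0.131 in T47D-Y. For the 387 genes raised 4- to 16-fold the medians were 2.61 in T47D-co against 0.0775 in T47D-Y, and for the 975 raised 2- to 4-fold they were 1.36 and 0.039. Genes lowered at least 4-fold in T47D-co, 380 in all, had medians of -2.48 in T47D-co against -0.0371 in T47D-Y. A positive T47D-Y effect was found for 63.2, 67.4 and 66.6% of the 3 raised classes, and for 48.5% of genes not called in T47D-co. Across all 20159 genes the effects in the lines had a Pearson r of 0.0842, given as a description over genes that share their libraries. Of 3057 genes changed at least 2-fold in T47D-co, 1545 (50.5%) had an upper 95% limit of the T47D-Y effect under 25% of the T47D-co effect, and 11 had a lower limit over 25%. The interaction was called for 2581 (84.4%) of the 3057.

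The 10 leading positive genes were the largest called interactions among plainly named genes with a mean of at least 50 scaled fragments in 1 group and the same sign without each library. All but MGAT2 were called higher with R5020 in T47D-co. KRT5, a basal keratin, held 252.2, 252.8 and 278.1 scaled fragments in T47D-co R5020, 0.9623, 0.7137 and 0.0 in T47D-co EtOH, 3.77, 0.5272 and 1.683 in T47D-Y R5020, and 1.653, 2.151 and 2.128 in T47D-Y EtOH. Only T47D-co R5020 stood apart, and the interaction was 7.59 ± 0.66 (chr12:52908358-52914471, hg19). CORO2B, an actin-binding coronin, was at 2432 ± 128 in T47D-co R5020, 3.37 ± 1.35 in T47D-co EtOH, 70.4 ± 5.58 in T47D-Y R5020 and 13.0 ± 1.16 in T47D-Y EtOH (SD, n = 3 each). It was called in both lines, at 9.17 ± 0.23 in T47D-co against 2.35 ± 0.23 in T47D-Y, with an interaction of 6.82 ± 0.33. ELFN2, a synaptic adhesion protein, had an interaction of 6.15 ± 0.64, and CHRM4, a muscarinic acetylcholine receptor, of 5.51 ± 0.46. TESC, a calcium-binding protein, followed at 5.30 ± 0.45.

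Transcription factors were among the 10 leading positive genes. ZBTB7C, a zinc finger factor, was at 3596, 3794 and 3606 scaled fragments in T47D-co R5020, 47.15, 62.8 and 61.06 in T47D-co EtOH, 1149, 1129 and 1131 in T47D-Y R5020, and 1117, 1033 and 1062 in T47D-Y EtOH. Its T47D-Y libraries lay between the T47D-co groups, with R5020 above EtOH by a margin far smaller than in T47D-co, and the interaction was 5.91 ± 0.11. PRDM1, a transcriptional repressor of differentiated cells, had an interaction of 5.53 ± 0.55. ZBTB16, a glucocorticoid and progestin target, stood at 6187, 6401 and 6455 in T47D-co R5020, 7.944, 12.13 and 9.217 in T47D-co EtOH, 27.23, 38.37 and 37.6 in T47D-Y R5020, and 1.653, 2.151 and 2.128 in T47D-Y EtOH. R5020 libraries were above EtOH libraries in both lines, and the interaction was 5.66 ± 0.44, against 5.535 for its locus as a whole. MGAT2, also among the 10 at 6.60 ± 2.66, shares its locus, where the summed fragments gave 0.53. It read above 10 scaled fragments in only 3 of the 12 libraries, and R5020 was not called for it in T47D-co (2.01 ± 1.88, adjusted p = 0.385). Its interaction call was lost under 13 of 24 alternatives.

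The leading negative genes, chosen by the same rule, differed in which line held more of them. AMIGO2, an adhesion protein of nerve cells, held 59.31, 63.78 and 53.01 scaled fragments in T47D-co R5020, 1531, 1565 and 1509 in T47D-co EtOH, 86.61, 105.9 and 94.15 in T47D-Y R5020, and 121.1, 126.6 and 137.6 in T47D-Y EtOH. T47D-co EtOH was above every other library, and the interaction was -4.26 ± 0.22. PCED1B, at the same locus (chr12:47469489-47630443, hg19), was at 152.0 ± 10.8 in T47D-co R5020, 3028 ± 178 in T47D-co EtOH, 483.9 ± 19.2 in T47D-Y R5020 and 575.6 ± 67.9 in T47D-Y EtOH. Its interaction was -4.06 ± 0.11, and that of the locus as a whole was -4.16, since the fragments had been divided between the genes there.

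EBF1 and GRPR were much lower in T47D-Y than in T47D-co. EBF1, a lymphoid and mesenchymal transcription factor, was at 24.85, 22.72 and 19.49 in T47D-co R5020 and 320.3, 344.4 and 349.3 in T47D-co EtOH, and between 0.5272 and 3.191 in the 6 T47D-Y libraries (interaction -3.58 ± 0.47). GRPR, the receptor of gastrin-releasing peptide, was at 112.3, 124.6 and 116.3 in T47D-co R5020 and 1464, 1335 and 1380 in T47D-co EtOH, against 24.88, 17.37 and 17.61 in T47D-Y R5020 and 22.21, 17.47 and 24.34 in T47D-Y EtOH (-3.46 ± 0.25). For genes this low in T47D-Y, a fall there would have little room to show on this scale. FUT9, a fucosyltransferase, was -4.25 ± 0.50 and CCDC154 -3.58 ± 0.27. TYRP1, a melanosome enzyme, had an interaction of -4.01 ± 0.44, where the sum at its shared locus gave -0.56.

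CCL2 and KCNH7 were higher in T47D-Y than in T47D-co. CCL2, a monocyte chemokine, was at 0.0, 1.68 and 0.0 in T47D-co R5020 and 14.43, 17.13 and 17.28 in T47D-co EtOH, against 102.5, 106.1 and 102.7 in T47D-Y R5020 and 102.5, 110.8 and 137.2 in T47D-Y EtOH (-3.47 ± 0.48). KCNH7, a potassium channel, was at 14.67, 19.32 and 24.69 in T47D-co R5020 and 221.3, 245.9 and 224.2 in T47D-co EtOH, against 2001, 1850 and 1763 in T47D-Y R5020 and 1861, 1901 and 1969 in T47D-Y EtOH (-3.49 ± 0.15, locus sum -1.17). For both, R5020 libraries were below EtOH libraries in T47D-co and overlapped them in T47D-Y. CCL2 was near 0 in T47D-co R5020, where its log2 effect depends on the processing. Its interaction ran from -4.20 to -1.79 over the alternatives. As a difference of differences in scaled fragments it was only -2.67. PGAM2, a muscle glycolytic enzyme, was -5.03 ± 1.87 with values spread from 0 to 126.6 and a locus sum of -0.13. Its call was lost under 11 of 24 alternatives, and with IFN its interaction was -0.07 (adjusted p = 0.981).

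**Figure D2:**
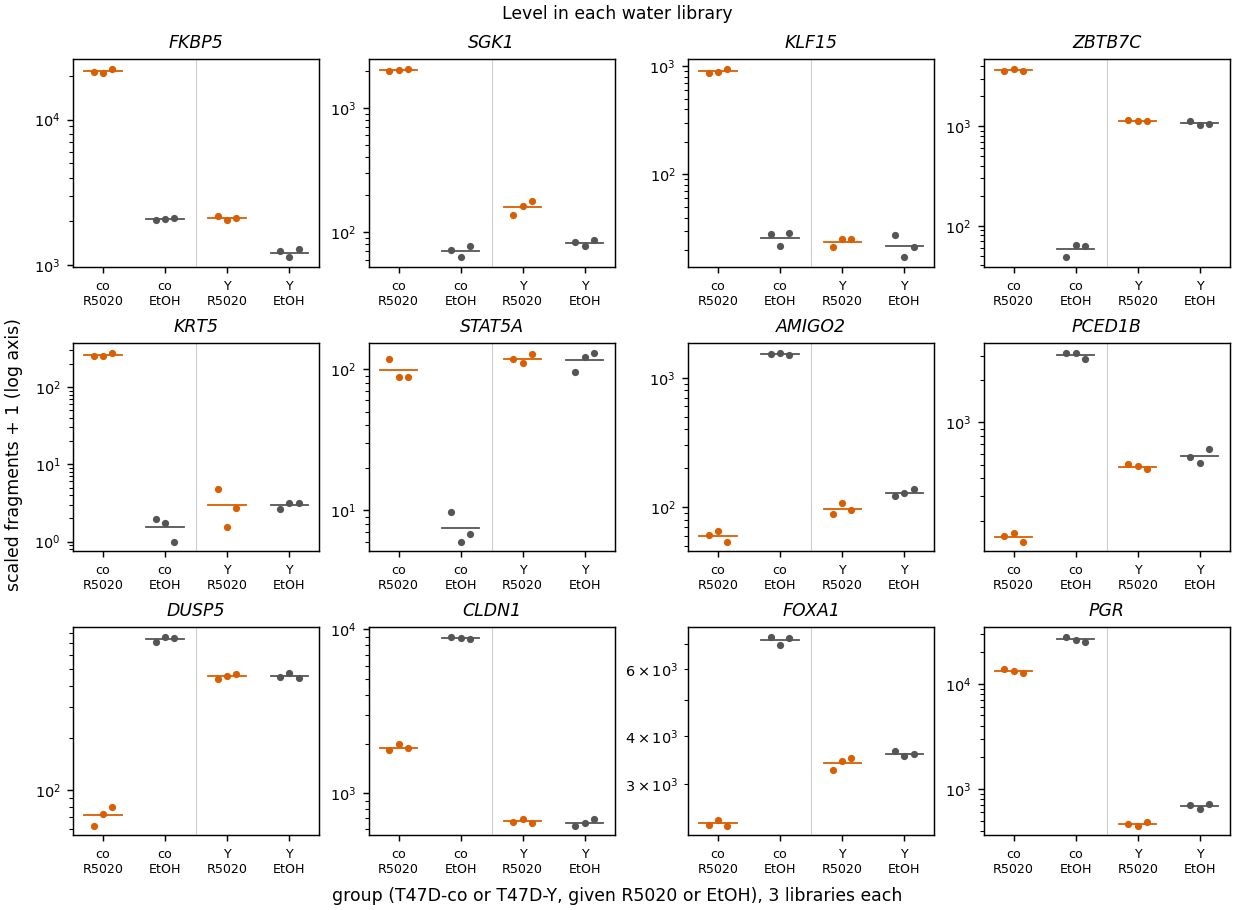
Scaled fragments + 1 (log axis, scaled per panel) of 12 genes in each water library, with 3 points and their mean per group, R5020 in orange and EtOH in grey; co is T47D-co and Y is T47D-Y. FKBP5, SGK1, KLF15, ZBTB7C, KRT5 and STAT5A were higher and AMIGO2, PCED1B, DUSP5, CLDN1, FOXA1 and PGR lower in T47D-co R5020 than in T47D-co EtOH, with smaller gaps between the T47D-Y groups.

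The level without R5020 moved with the direction of the interaction. It was read from the EtOH libraries given IFN, which the interaction does not use. There T47D-co was at least 2-fold below T47D-Y for 28.6% of the 1243 positive genes, 16.5% of the 1409 negative genes and 12.7% of all genes tested. T47D-co was at least 2-fold above T47D-Y for 9.41% of the positive, 27.7% of the negative and 8.17% of all genes. STAT5A, a transcription factor of prolactin and progestin signalling, shows the first pattern. It held 116.9, 87.34 and 87.07 in T47D-co R5020, 8.661, 4.996 and 5.761 in T47D-co EtOH, 116.9, 108.6 and 127.9 in T47D-Y R5020, and 95.04, 121.5 and 129.8 in T47D-Y EtOH. T47D-co with R5020 overlapped the T47D-Y libraries, with an interaction of 3.69 ± 0.28. CLDN1, a tight junction protein, shows the second: 1824, 1990 and 1873 in T47D-co R5020, 9028, 8861 and 8793 in T47D-co EtOH, 664.3, 692.3 and 658.8 in T47D-Y R5020, and 630.5, 651.8 and 690.4 in T47D-Y EtOH (-2.26 ± 0.07). Taken as a difference of differences in scaled fragments rather than log2 values, 15 of the 4351 positive and 22 of the 4637 negative interactions had the other sign.

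The 16 gene lists below were drawn up with earlier results of these data known, so each is described by its counts and median beside all genes tested, whose median interaction was -0.03 and of which 21.6% were positive and 23.0% negative. Genes of several steroid receptors had negative interactions. Of 25 receptors, chaperones and cofactors, 12 were positive and 12 negative, with a median interaction of 0.09 that became -0.10 under quantile normalization. Among the negative members were NR3C1 (-1.27 ± 0.18), NR3C2, the mineralocorticoid receptor (-0.89 ± 0.09), ESR1, oestrogen receptor alpha (-0.78 ± 0.06), and PGR. ESR1 was at 10850, 10750 and 11160 in T47D-co R5020 and 19240, 19100 and 17990 in T47D-co EtOH, against 4513, 4109 and 4284 in T47D-Y R5020 and 4418, 4191 and 4312 in T47D-Y EtOH. The T47D-co groups were apart and above T47D-Y, whose groups overlapped. The positive members included chaperones with small values, such as the heat shock cognate HSPA8 (0.31) and the immunophilin FKBP4 (0.30), and the coactivator NCOA1 (0.69).

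Progestin and glucocorticoid targets had the largest median of the lists, 1.51 over 44 tested, with 34 positive and 4 negative. Of them, 7 were also called higher in T47D-Y. FKBP5, a chaperone that restrains steroid receptors, was at 21310, 20950 and 22470 in T47D-co R5020, 2057, 2064 and 2106 in T47D-co EtOH, 2169, 2056 and 2093 in T47D-Y R5020, and 1244, 1128 and 1281 in T47D-Y EtOH. T47D-Y with R5020 thus overlapped T47D-co without it. The effects were 3.38 ± 0.04 in T47D-co against 0.79 ± 0.04 in T47D-Y, with an interaction of 2.58 ± 0.06 (adjusted p = 2.84e-21). SGK1, a kinase of sodium transport, stood at 1999, 2023 and 2074 in T47D-co R5020, 70.25, 61.37 and 76.04 in T47D-co EtOH, 136.5, 159.8 and 176.7 in T47D-Y R5020, and 81.81, 76.36 and 85.1 in T47D-Y EtOH. Its interaction was 3.92 ± 0.16, on effects of 4.86 ± 0.11 in T47D-co against 0.94 ± 0.11 in T47D-Y.

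Other targets showed no called effect in T47D-Y with water. KLF15, a metabolic zinc finger factor, was at 855.0, 875.1 and 950.0 in T47D-co R5020, 26.95, 20.7 and 27.65 in T47D-co EtOH, 20.36, 24.25 and 24.4 in T47D-Y R5020, and 26.44, 16.13 and 20.21 in T47D-Y EtOH. The T47D-Y groups overlapped and the interaction was 4.96 ± 0.24. With IFN, however, R5020 was called for KLF15 in T47D-Y (0.80 ± 0.17, adjusted p = 0.0268). Its interaction there was 4.09 ± 0.24, and the difference from water was not called (adjusted p = 0.441). TSC22D3, the anti-inflammatory GILZ, had an effect of 2.16 ± 0.07 in T47D-co against -0.08 ± 0.07 in T47D-Y, an interaction of 2.25 ± 0.10. HSD11B2, which inactivates cortisol, had 3.55 ± 0.13 in T47D-co against 0.23 ± 0.13 in T47D-Y (3.32 ± 0.19). PDK4, a brake on glucose oxidation, had an interaction of 3.88 ± 0.64, KLF9 of 1.17 ± 0.22, and the cyclin kinase inhibitor CDKN1A of 0.38 ± 0.08. The 4 negative members, named after their values were seen, were the calcium-regulating hormone STC1 (-2.67), the lipase inhibitor ANGPTL4 (-1.83), the alveolar factor ELF5 (-1.25) and the sulphotransferase SULT2B1 (-0.79).

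Growth factor ligands were divided. Of 10 tested paracrine effectors of progesterone, 4 were positive and 1 negative, with a median of 0.07 that was -0.16 without the 4 libraries. WNT4, a mammary branching signal, was at 210.8, 232.6 and 219.6 in T47D-co R5020, 103.9, 119.2 and 127.9 in T47D-co EtOH, 201.3, 202.5 and 214.6 in T47D-Y R5020, and 208.3, 200.1 and 220.2 in T47D-Y EtOH. T47D-co with R5020 overlapped T47D-Y and T47D-co EtOH was lower, with an interaction of 0.94 ± 0.13. The chemokine CXCL12 had 2.09 ± 0.27 and EGF 1.41 ± 0.18, and PTHLH, the parathyroid hormone-like peptide, had -1.97 ± 0.56. TNFSF11, the ligand RANKL, was not analysed here.

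Among 22 genes of EGF receptor signalling and its feedback, 9 were positive and 6 negative (median 0.39). The ligands NRG2 (2.29 ± 0.47) and BTC (2.07 ± 0.37) were positive, as was EGFR itself, the receptor (1.54 ± 0.05). The MAP kinase phosphatases DUSP5 and DUSP10, which end the signal, were the most negative at -3.37 ± 0.10 and -2.70 ± 0.25. DUSP5 held 61.67, 72.23 and 79.27 in T47D-co R5020 and 714.0, 762.2 and 746.6 in T47D-co EtOH, against 437.3, 453.4 and 467.8 in T47D-Y R5020 and 448.7, 474.3 and 440.4 in T47D-Y EtOH. The T47D-Y groups overlapped. The phosphatases DUSP4 (1.05) and DUSP7 (0.81) were positive, so the family did not move as a whole.

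Luminal and oestrogen-response genes leaned to the negative side, 16 of 29 against 6 positive, with a median of -0.29. FOXA1, a pioneer factor for oestrogen receptor, was at 2346, 2414 and 2330 in T47D-co R5020, 7313, 6938 and 7263 in T47D-co EtOH, 3263, 3455 and 3516 in T47D-Y R5020, and 3656, 3543 and 3604 in T47D-Y EtOH. T47D-co EtOH was the highest group and T47D-co R5020 the lowest, with an interaction of -1.52 ± 0.06. BCL2, an oestrogen-induced survival gene, had -2.24 ± 0.23, and ELF3, an epithelial factor, -1.55 ± 0.09, with a locus sum of -0.41. GREB1, an oestrogen receptor cofactor, went the other way at 1.68 ± 0.08 and was called higher in both lines.

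Basal and mesenchymal genes were 7 positive and 3 negative of 15 tested, with a median of -0.06. The hyaluronan receptor CD44 had 1.80 ± 0.10 and SOX9, a progenitor factor, 1.73 ± 0.10, while TGFB2, a secreted growth inhibitor, had -2.62 ± 0.15. Cell adhesion and junction genes were 6 positive and 12 negative of 25, with a median of -0.23. Gap junction protein GJB2 had 3.47 ± 0.20, CLDN8 1.23 ± 0.27 and the laminin chain LAMA3 1.22 ± 0.07, beside the fall of CLDN1. The luminal marker sum was lowest in T47D-co R5020, at 61760 to 64050. Most of its markers, such as FOXA1, are themselves members of the luminal or adhesion lists, so it is not a separate reading of them. A change in the mix of cells and its part in the counts were not tested.

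Genes of G1/S and DNA replication were positive in 22 of 27, with 1 negative and a median of 0.595. MYC, the growth-driving transcription factor, held 135.3, 160.4 and 163.7 in T47D-co R5020, 25.02, 38.54 and 38.02 in T47D-co EtOH, 144.8, 130.8 and 162.4 in T47D-Y R5020, and 143.8, 130.1 and 137.2 in T47D-Y EtOH. T47D-co EtOH alone was low, and the interaction was 2.08 ± 0.24. CCND1, cyclin D1, had 1.83 ± 0.05 and the phosphatase CDC25A, which frees cyclin kinases, 1.33 ± 0.07. The kinase inhibitor CDKN2B was the negative member at -1.501 ± 0.137, with a locus sum of -0.25. Mitotic genes did not share the lean: of 23 tested, 5 were positive and 6 negative, with a median of -0.05. Their values were small, from CENPE, a spindle motor (-0.50 ± 0.09), to the kinesin KIF20A (0.58 ± 0.07, locus sum 0.15).

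Metabolic lists leaned to the positive side. Sterol and fatty acid synthesis had 16 positive and 1 negative of 23, with a median of 0.27. SCD, which desaturates fatty acids, had 0.85 ± 0.04 and SQLE, a squalene oxidase, 0.68 ± 0.05. Hypoxia and glycolysis genes were 10 positive and 2 negative of 19 (median 0.20), led by the mitophagy receptor BNIP3 (1.16 ± 0.09) and the glycolytic regulator PFKFB3 (1.08 ± 0.06). Steroid and retinoid metabolism was 8 positive and 3 negative of 18 (median 0.35). CYP26A1, which clears retinoic acid, had 4.39 ± 0.72, SRD5A1, a 5-alpha reductase, 2.203 ± 0.0692, and AKR1C3 and AKR1C2, near-identical ketosteroid reductases whose reads can be shared, 2.88 ± 0.64 and 2.81 ± 0.54.

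The stress list leaned to the positive side and the death list was divided. AP-1, stress and immediate early genes were 12 positive and 3 negative of 22 (median 0.58), with CHAC1, a glutathione-degrading enzyme, at 3.18 ± 0.43 and the orphan receptor NR4A2 at 1.35 ± 0.18. Of 26 death and growth arrest genes, 9 were positive and 6 negative (median 0.13), beside 21.6% and 23.0% of all genes. BCL2L11, the BH3 death protein BIM, was at 2426, 2368 and 2433 in T47D-co R5020 and 369.5, 391.1 and 368.7 in T47D-co EtOH, against 758.6, 758.7 and 761.5 in T47D-Y R5020 and 763.6, 821.7 and 700.0 in T47D-Y EtOH. The T47D-Y groups overlapped, and the interaction was 2.68 ± 0.07. TNFSF10, the death ligand TRAIL, had the opposite sign, at 30.37, 37.05 and 33.79 in T47D-co R5020 and 199.2, 209.2 and 185.5 in T47D-co EtOH, with an interaction of -2.52 ± 0.20. Its receptor TNFRSF10A had 1.80 ± 0.09.

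Antiviral interferon-stimulated genes leaned to the negative side with no interferon added: 20 of 46 negative and 7 positive, with a median of -0.38. ISG15, a ubiquitin-like antiviral protein, was at 34.98, 46.19 and 38.99 in T47D-co R5020, 72.17, 59.95 and 64.52 in T47D-co EtOH, 16.59, 10.02 and 15.15 in T47D-Y R5020, and 9.917, 13.98 and 12.77 in T47D-Y EtOH. The T47D-co groups were apart and the T47D-Y groups overlapped, with an interaction of -0.86 ± 0.22. That call was lost with voom weights (adjusted p = 0.166, against 0.00181), and with IFN the interaction was -0.42 ± 0.22 (adjusted p = 0.121). XAF1 (-2.11 ± 0.43), IFITM3 (-1.98 ± 0.45) and SAMD9L (-1.97 ± 0.47) were more negative, all with group means of at most 21.1 scaled fragments with water. The call of SAMD9L was lost with voom weights (adjusted p = 0.065). In T47D-Y R5020 and T47D-Y EtOH their means were 4.57 and 2.53 (XAF1), 8.84 and 6.81 (IFITM3), and 2.68 and 2.34 (SAMD9L). Tested genes were chosen by their level over all 24 libraries, so a gene of this list could be tested while near 0 with water. For such genes a fall in T47D-Y would have little room to show. HERC5, the ligase that attaches ISG15, was positive at 2.37 ± 0.18, with 280.7, 283.9 and 322.3 in T47D-co R5020 and 68.33, 50.67 and 63.37 in T47D-co EtOH.

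The 44 genes called in T47D-Y show what the line with few PGR transcripts still did. Of these, 41 had a called interaction, 36 of them with the larger effect in T47D-co (33 higher with R5020 and 3 lower). The T47D-Y effect was 7.83 to 59.1% of the T47D-co effect on the log2 scale, with a median of 24.6%. In these 36 genes the T47D-Y value was used to choose them, so the shares were also read in the IFN libraries, where they ran from -5.87 to 47.4% with a median of 17.25%. The gain in scaled fragments was a smaller part of that in T47D-co, with a median of 5.4% and a range of 0.512 to 44.5%, and it was under 10% for 24 of the 36. PGR transcripts of T47D-Y were 2.616% of those of T47D-co with EtOH and 3.509% with R5020.

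GLUL, glutamine synthetase, had a low share on the log2 scale: it held 17000, 17150 and 17360 in T47D-co R5020, 1496, 1516 and 1513 in T47D-co EtOH, 5345, 5448 and 5368 in T47D-Y R5020, and 4238, 4518 and 4326 in T47D-Y EtOH. The effects were 3.51 in T47D-co against 0.31 ± 0.03 in T47D-Y, 8.7% of it, and the gain in scaled fragments was 6.55% of that in T47D-co. ATP10A, a phospholipid flippase, had 8.48%, MAN1A1, a Golgi mannosidase, 8.08% and GRB10, an adaptor of insulin signalling, 7.83%. Log2 shares were higher for ZBTB16 (38.6%), NDRG1, a stress-response gene (36.2%), and the Notch ligand JAG1 (33.1%). In scaled fragments their shares were 0.512, 2.94 and 7.59%, that of ZBTB16 being the lowest of the 36. With IFN the log2 shares were 28.9% for ZBTB16, 20.3% for NDRG1 and 9.41% for JAG1, and the T47D-Y effects of NDRG1 (adjusted p = 0.151) and JAG1 (adjusted p = 0.972) were not called. The 3 genes lowered in both lines were PGR (57.4%), BMPR1B, a receptor of bone morphogenetic proteins (59.1%), and DOCK10, a guanine exchange factor (40.1%). These genes beyond the rule for named genes were chosen after their values were seen.

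In the T47D-Y libraries given IFN, which did not choose the genes, 43 of the 44 had the same sign and 33 were called, and the interaction was called with the same sign for all 36. The exception in sign was ATP8B3, at 0.66 ± 0.13 with water and -0.15 with IFN.

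**Figure D3:**
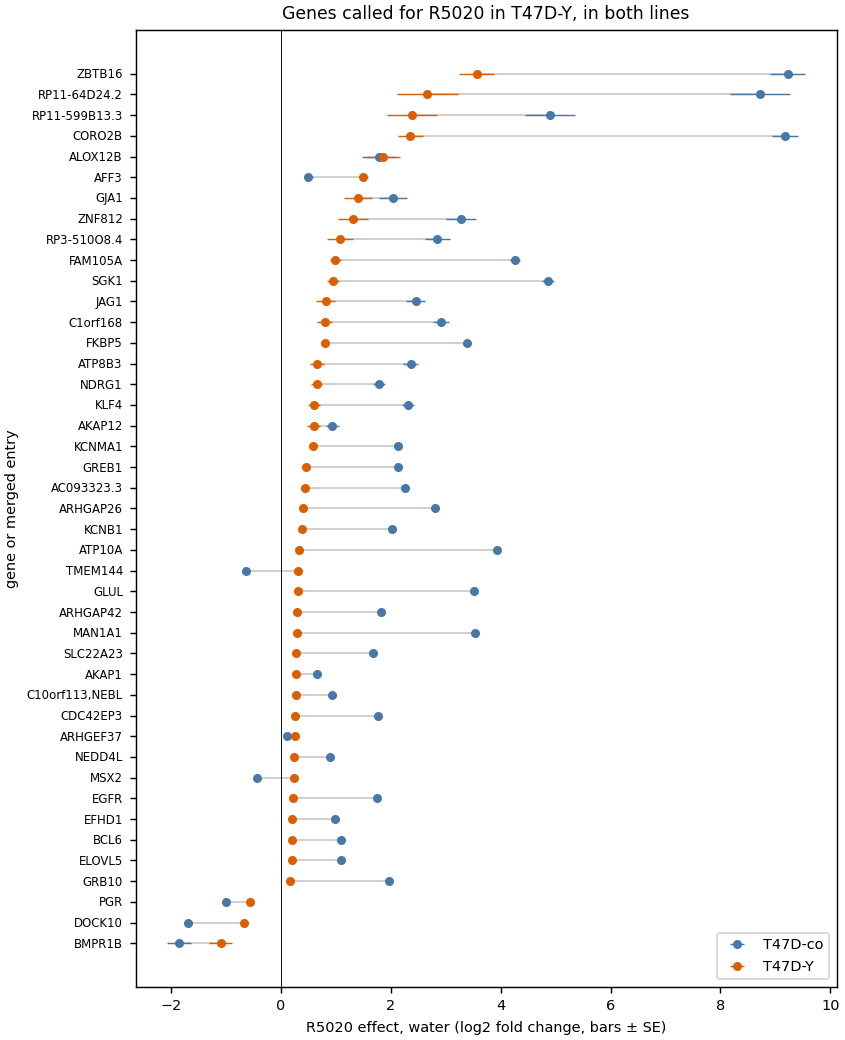
R5020 effect (x axis, log2 fold change, bars ± SE) of 43 of the 44 genes or merged entries called in T47D-Y, in T47D-co (blue) and T47D-Y (orange), ordered by the T47D-Y effect. Blue lies beyond orange for most genes; AFF3, ARHGEF37 and ALOX12B lie the other way, and TMEM144 and MSX2 have opposite signs.

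NEDD4L, a ubiquitin ligase that SGK1 restrains, was called in both lines, at 0.90 in T47D-co against 0.24 ± 0.03 in T47D-Y. It was the only gene called in T47D-Y with a match to a steroid response element in the promoter windows examined. The letters searched were the half-sites ACA and TGTNC with 3 bases between them, on both strands, from 250 bases before to 50 after each start in the RefSeq promoters of GRCh38.p14, where 101 of 130 named or T47D-Y genes were found. Its 2 promoters with a match are shown, both on the plus strand, with that of ESR1, a receptor gene with a negative interaction, on the plus strand of chr6. Capitals mark the match.
NEDD4L chr18:58046976-58047275: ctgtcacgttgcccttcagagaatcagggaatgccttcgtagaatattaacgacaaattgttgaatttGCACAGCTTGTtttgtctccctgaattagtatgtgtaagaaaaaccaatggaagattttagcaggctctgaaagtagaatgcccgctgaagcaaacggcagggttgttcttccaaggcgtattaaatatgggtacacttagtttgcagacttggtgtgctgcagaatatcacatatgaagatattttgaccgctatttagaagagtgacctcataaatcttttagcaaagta
NEDD4L chr18:58149070-58149369: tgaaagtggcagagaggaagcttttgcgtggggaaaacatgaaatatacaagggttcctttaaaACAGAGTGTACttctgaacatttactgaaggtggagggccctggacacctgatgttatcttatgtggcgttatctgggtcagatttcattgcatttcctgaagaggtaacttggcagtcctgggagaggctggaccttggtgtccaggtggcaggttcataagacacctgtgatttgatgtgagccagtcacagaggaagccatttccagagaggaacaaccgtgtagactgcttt
ESR1 chr6:151656422-151656721: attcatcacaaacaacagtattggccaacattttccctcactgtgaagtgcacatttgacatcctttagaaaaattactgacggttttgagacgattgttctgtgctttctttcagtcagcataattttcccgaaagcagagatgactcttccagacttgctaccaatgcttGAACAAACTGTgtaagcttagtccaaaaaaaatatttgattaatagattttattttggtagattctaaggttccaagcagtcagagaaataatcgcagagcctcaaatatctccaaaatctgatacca
A match is a description of letters, not a site. It was present in 23 of 1165 promoters of positive genes with an interaction of at least 2-fold (1.97%), in 16 of 999 of the negative genes (1.6%), in 2 of 64 of the genes called in T47D-Y (3.12%), in 1.53% of the promoters of tested genes and in 829 of 35116 promoters in all (2.36%). The shares are given with no test.

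A few genes responded more in T47D-Y, or the other way round. AFF3, a nuclear elongation factor protein, was at 4476, 4676 and 4643 in T47D-co R5020, 3203, 3433 and 3151 in T47D-co EtOH, 280.5, 268.9 and 232.2 in T47D-Y R5020, and 100.8, 89.51 and 84.28 in T47D-Y EtOH. R5020 libraries were above EtOH libraries in both lines, with effects of 0.50 in T47D-co against 1.498 ± 0.08 in T47D-Y and an interaction of -1.002 ± 0.11 (adjusted p = 5.8e-08). In scaled fragments the T47D-Y gain was 12.6% of that in T47D-co. ARHGEF37, a guanine exchange factor, had a small interaction of -0.14 ± 0.05. With IFN its interaction was called with the other sign, 0.20 ± 0.05 (adjusted p = 0.00221), on effects of 0.35 in T47D-co against 0.15 in T47D-Y, while that of AFF3 was again negative, -0.76 ± 0.11.

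TMEM144, a membrane protein, was at 840.6, 723.6 and 772.0 in T47D-co R5020, 1276, 1231 and 1126 in T47D-co EtOH, 950.6, 907.8 and 855.9 in T47D-Y R5020, and 714.1, 721.1 and 754.8 in T47D-Y EtOH. R5020 libraries were below EtOH libraries in T47D-co and above them in T47D-Y, at -0.64 ± 0.06 in T47D-co against 0.31 ± 0.06 in T47D-Y (interaction -0.945 ± 0.08). MSX2, a homeobox factor, moved the same ways: it was at 1128, 1085 and 1079 in T47D-co R5020, 1504, 1436 and 1520 in T47D-co EtOH, 548.9, 607.4 and 598.3 in T47D-Y R5020, and 509.1, 504.4 and 483.0 in T47D-Y EtOH. Its effects were -0.44 ± 0.05 in T47D-co against 0.23 ± 0.05 in T47D-Y. Without T47D-Y EtOH replicate 2, 1 gene had opposite called effects in place of 3. In the IFN libraries the interactions of TMEM144 and MSX2 were again negative, at -0.73 and -0.60. The rise in T47D-Y was not called with IFN, at 0.25 for TMEM144 (adjusted p = 0.0551) and 0.16 for MSX2 (adjusted p = 0.291). A further 5 genes, named with MGAT2 because their T47D-Y estimate was the larger in size, had a called interaction but no T47D-Y call. Their estimates were of opposite sign in the lines, as were those of other named genes such as FUT9. Those of GPR37L1 were 1.01 ± 0.30 in T47D-co against -1.07 ± 0.30 in T47D-Y (interaction 2.08 ± 0.43), and those of SOX6 0.45 ± 0.15 against -0.56 ± 0.15 (1.02 ± 0.21, locus sum 0.25). The interactions of GNG11 (-1.41 ± 0.46), ZNF439 (-1.18 ± 0.39) and LRP2BP (-1.09 ± 0.26, locus sum -0.14) lost their calls without the 4 libraries and were not called with IFN. That the T47D-Y effect was the larger was not tested for these genes.

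The same contrast in the 12 libraries given 20 IU per ml IFN shares no library with the water contrast, and 9281 genes were called there (46.0%). Of the 4351 genes positive with water, 3731 (85.8%) were called positive with IFN and 3 negative. Of the 4637 negative, 3516 (75.8%) were called negative with IFN and 6 positive. The median interaction was 0.575 with water and 0.571 with IFN for the positive genes, and -0.638 with water and -0.523 with IFN for the negative. Across the 20159 genes the interactions had a Pearson r of 0.778, as a description.

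The difference between the water and IFN interactions was called for 12 genes (0.0595%), with 1760 at an unadjusted p under 0.05. LAMP3, an interferon-induced lysosomal protein, had the largest, 1.64 ± 0.15 (adjusted p = 8.98e-07): the interaction was 3.08 with water and 1.44 with IFN. It was at 1544, 1478 and 1591 in T47D-co R5020 and 166.5, 186.3 and 214.3 in T47D-co EtOH with water, against 254.1, 264.1 and 285.2 in T47D-Y R5020 and 292.5, 246.3 and 298.9 in T47D-Y EtOH. CYP1A1 and CYP1B1, targets of the aryl hydrocarbon receptor, had the most negative differences, -1.25 ± 0.23 and -1.07 ± 0.07. The interaction of CYP1A1 was called negative with water (-0.74, adjusted p = 0.000503) and positive with IFN (0.51, adjusted p = 0.0121). That of CYP1B1 was positive in both, at 0.65 with water and 1.71 with IFN. CYP1B1 was at 5144 in T47D-co R5020 and 3016 in T47D-co EtOH with water, and at 4072 in T47D-co R5020 and 1274 in T47D-co EtOH with IFN. The other named genes were MLX, NEDD4L, HOMER2, CACNA1D and ST3GAL1, with differences between -0.42 and 0.58. The count ran from 2 to 14 when single libraries were left out, so this short list rests on few libraries.

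**Figure D4:**
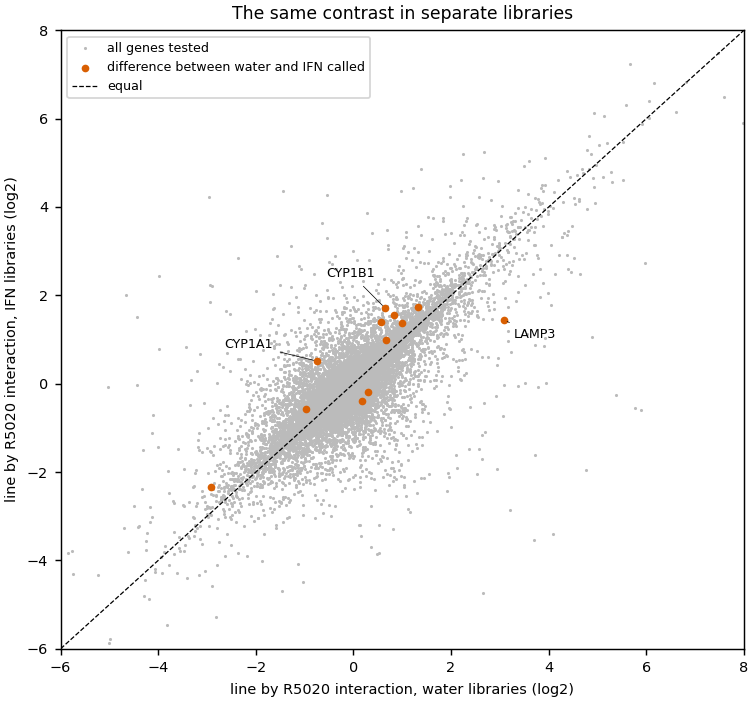
Line by R5020 interaction (log2) in water libraries (x axis) against IFN libraries (y axis) for the tested genes in grey, with the 12 genes whose difference was called in orange and the dashed line marking equal values; 3 genes lie outside the axes. The cloud follows the dashed line, LAMP3 lies below it at 3.08 and 1.44, and CYP1B1 above it at 0.65 and 1.71.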

How the data were processed

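Total RNA of 24 libraries (Trizol, per the labels) was sequenced. The submitters' processing notes name TopHat2 2.0.12, Cufflinks 2.2.1 and build GRCh37 (hg19). The deposited table of signal values holds 25541 entries, 22030 single names and 3511 merged, and the authors state no unit in its header. In each library 97.4 to 98.6% of values of genes alone at their locus, but 60.1 to 63.4% of all values, were whole multiples of 1 step (tolerance 0.05 of a step). The deposited values were therefore read as estimated fragments divided by a factor per library, and no test for whole counts was run. The authors' factors, set apart in blocks of 6 libraries, were removed, and new ones by median of ratios were computed over 24 libraries from 14209 genes. A block factor cancels within the interaction. At 12589 entries the gene was alone at its locus, and elsewhere fragments were divided between genes. Left out were 28 entries under 11 repeated symbols and 1 without a name, and PER1 lies in a merged locus and was not analysed here.

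Entries with at least 10 scaled fragments in 3 libraries (20159) were fitted as log2(scaled fragments + 1) with limma 3.58.1 in R 4.3.3, 8 group means, a variance trend, 16 residual and 8.05 prior degrees of freedom. Tests were two-sided. The fit was tested on simulated data. Python 3.11.15 parsed the files. Named genes were the 10 largest positive and 10 largest negative called interactions with a mean of 50 scaled fragments in 1 group, an unchanged sign without each library and a plain symbol, up to 4 called members of each list, a short list of progestin and line genes, and those with opposite, equal or larger T47D-Y effects. Some genes that meet this rule are not reported here. The comparison, lists and members were chosen with earlier results of these data known. Alternatives were other scales, pseudocounts, filters, weights, samples and a replicate block. Sums over a shared locus were added after seeing the data. Depth, with 3 libraries a group, limits calls among low genes.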

Additional observations from a re-analysis of the deposited data

Results flagged for a closer look

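The line difference in the R5020 effect was called for 8988 genes by the interaction term itself. The interaction differed between water and IFN libraries for 12 genes by the term for that difference. With water, R5020 had called effects of opposite sign in T47D-co and T47D-Y for TMEM144 (interaction -0.945) and MSX2 (-0.67). With IFN their T47D-Y effects were not called. A called larger effect in T47D-Y was found with water for AFF3 (-1.002) and ARHGEF37 (-0.14). With IFN the interaction of ARHGEF37 was called with the other sign (0.20, adjusted p = 0.00221). All groups held 3 libraries, so no library was tested as an outlier. No explanation of these differences was tested.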

How the results depend on the processing

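Of 96 named interactions, 87 kept their direction and call under every alternative run and 9 lost the call somewhere; none changed sign. The lost calls were those of MGAT2, PGAM2, ZNF439, FOSB, LRP2BP, GNG11 and CDC20, each without the 4 libraries that list the mitochondrial locus at 0 and some elsewhere, and ISG15 (adjusted p = 0.166) and SAMD9L (adjusted p = 0.065) with voom weights. Restricting the fit to genes alone at their locus, which tests fewer genes, gave 4522 interactions (2233 positive, 2289 negative, 1479 at least 2-fold), 5710 calls in T47D-co, 28 in T47D-Y, 4653 interactions with IFN and 6 differences between water and IFN. Without the 4 libraries there were 16 calls in T47D-Y, 2 such differences and 1 gene with opposite effects. With no filter on low values there were 4 such differences, and on the deposited scale 1 gene met the equal-effect rule; the cause was not tested.

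Leaving out 1 library at a time gave 8469 to 8718 interactions, 4148 to 4210 positive, 4321 to 4508 negative and 2537 to 2669 at least 2-fold. Calls numbered 10590 to 11372 in T47D-co, 32 to 44 in T47D-Y, 9127 to 9282 for the interaction with IFN, 0 to 2 for equal and 1 to 3 for opposite effects. The 12 differences between water and IFN became 2 to 14: 4 without T47D-co R5020 replicate 1, 5 without T47D-co EtOH replicate 1, 2 without T47D-Y R5020 replicate 1, 7 without T47D-Y EtOH replicate 1 and 2 without T47D-Y EtOH replicate 2.

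With the replicate number as a block, 8972 interactions were called and 39 genes in T47D-Y. Same-numbered libraries deviated from their group means with correlations of -0.0428 to 0.0682, and 3 of 12 correlated best with their own number. No pairing by number was seen in these values. They cannot show whether same-numbered cultures were handled together. Scaling moved the share of positive calls between 44.9% (quantile) and 51.2% (deposited scale), against 48.4%. With 3 replicates a group, counting depth and spread limit what can be called in T47D-Y.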
